A study of Mus musculus with 6 samples.

Results

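The Notch receptors, ligands and Hes/Hey targets were followed in total RNA from sorted stem cells of the hair follicle (HFSCs) as 10 genes picked by name from the table of counts. These were the receptors Notch1, Notch2, Notch3 and Notch4, the ligands Jag1, Jag2, Dll1 and Dll4, and the target genes Hes1 and Hey1. They are 10 of the 56941 genes in the table, and all 10 were among the 32149 genes that passed the filter on low counts. HFSCs were sorted as CD34+/α6-integrin+ cells from dorsal skin of female mice at PD68, which the study staged as second telogen in both genotypes. They were profiled by total RNA sequencing in 6 biological replicates, 3 of each genotype (WT and Dab2-cKO). The strain was B6;129S4-Dab2tm1Cpr/J, all mice were Dab2fl/fl, and both genotypes received tamoxifen at 75 mg/kg on 5 consecutive days. K14CreER was carried by the Dab2-cKO mice only. It is a tamoxifen-activated Cre whose K14 promoter is active in basal keratinocytes, so that deletion was directed to the skin epithelium and not to HFSCs alone. The study asked how Dab2, an endocytic adaptor protein, acts on the gene expression of HFSCs. Whether any animals were pooled for a library is not given in the sources used here.

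Notch signalling passes between touching cells. A Jagged or Delta-like ligand on one cell pulls on a Notch receptor on its neighbour, ADAM proteases and γ-secretase then cut the receptor, and the freed intracellular domain joins the DNA-binding protein Rbpj to switch on Hes and Hey repressor genes. In skin the pathway is known for moving keratinocytes out of the basal layer into differentiation and for keeping the structure of the hair follicle. Outside the epithelium, Notch4 and Dll4 are best known from endothelial cells and Notch3 from the pericytes and smooth muscle of vessel walls.

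The start of the Hes1 gene is shown because Hes1 is the classical Rbpj-dependent target and fell here, and those of Jag1 and Dll4 because these had the largest fall and the largest rise among the 10 genes. Each sequence is the 150 bases before the first base of the canonical transcript, read 5′ to 3′ on the strand of the gene from GRCm39 with the GENCODE annotation. Capitals mark TGGGAA, the core letters of the Rbpj motif, searched on both strands. The Hes1 window is chr16:29883977-29884126 on the plus strand, inside the annotated span of the gene but without exon bases, the Jag1 window chr2:136958694-136958843 on the minus strand and the Dll4 window chr2:119156020-119156169 on the plus strand.
Hes1: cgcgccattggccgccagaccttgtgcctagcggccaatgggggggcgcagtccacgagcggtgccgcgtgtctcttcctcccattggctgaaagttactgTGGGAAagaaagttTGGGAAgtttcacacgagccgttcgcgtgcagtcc
Jag1: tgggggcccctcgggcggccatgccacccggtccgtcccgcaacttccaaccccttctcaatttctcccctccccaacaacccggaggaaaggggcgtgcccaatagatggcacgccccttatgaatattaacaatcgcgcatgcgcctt
Dll4: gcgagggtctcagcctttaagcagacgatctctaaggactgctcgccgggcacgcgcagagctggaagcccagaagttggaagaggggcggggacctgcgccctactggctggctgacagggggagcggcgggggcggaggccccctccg
The Hes1 window held 2 matches to TGGGAA, at bases -49 to -44 and -35 to -30 before the start, both on the sense strand. At least 1 match was found in 14.0% and at least 2 in 1.21% of 21667 windows of the same length before protein-coding genes. None of the other 9 genes had a match in its window. The windows of Notch1, Dll1 and Hey1 hold 2, 32 and 69 exon bases of the same gene, so they are not wholly upstream of it. CACNAG, the N box that Hes1 protein binds, was found 3 times in the Hes1 window without overlap with TGGGAA, against at least 3 times in 0.360% of all windows. It was found once each before Notch1, Notch3 and Hey1, and at least 1 match was present in 23.7% of all windows. These matches are letters in a window, and no binding was measured.

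The libraries held 7040032 to 9518564 counts in the group labelled WT and 9374373 to 11696457 in the group labelled Dab2-cKO. Mitochondrial genes took 13.0% to 14.4% and 19.1% to 20.3% of the counts, respectively. Dab2 itself, the targeted gene, stood at 338, 332 and 309 normalized counts in libraries with the label WT and at 1434, 1300 and 1390 under the label Dab2-cKO, so its direction went against the label of a knockout. A count over the whole gene also does not separate exons inside and outside the floxed part. Deletion was not directed to fibroblasts, endothelial or immune cells, whose markers mostly rose as well, as given below. The part of these cells in the Dab2 count was not tested. The columns headed FL-FL were taken as Dab2-cKO because the series title equates both, although both genotypes carry floxed alleles, and every direction given here depends on this assignment. A normalized count is the count divided by the effective library size (TMM) and multiplied by the mean effective size. Of the sorting markers, Cd34 rose from 510 ± 53.2 to 1780 ± 35.6 and Itga6 from 960 ± 41.5 to 1409 ± 47.8 normalized counts (SD, n = 3), both of which belong to a list of 10 HFSC bulge markers. Of this list 6 were higher, with Krt15, Nfatc1, Col17a1 and Tcf7l1 among them, 3 were lower (Sox9, Lhx2 and Lgr5) and 1 was not called. RNA from other cells moved with the labels as well. Of the markers of the inner root sheath, hair shaft and matrix, 11 of 11 measured were lower in the libraries labelled Dab2-cKO, and their summed level was 222754 to 267593 normalized counts against 3199 to 3262. Of the endothelial markers, 10 of 10 were higher, with sums of 1715 to 1953 against 6012 to 6139. Of the pericyte and smooth muscle markers, 6 of 8 were higher and 1 lower, with sums of 4293 to 4971 against 15550 to 15884. Rises were not limited to vessel markers. Of the fibroblast markers 6 of 6 were higher (median log2 fold change 1.59), and of the immune cell markers 5 of 6 (median 1.64). In the list for differentiated interfollicular epidermis 6 of 8 were higher and 2 lower (median 1.56). No marker in these lists was at 0 in a whole group. In bulk RNA, fewer cells of a type and less RNA per cell cannot be told apart. The proliferation markers were lower as well, 8 of 8. Hair cycle stage was not measured in these libraries, so a difference in stage or in carried-over follicle cells cannot be told apart from genotype.

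**Figure D1:**
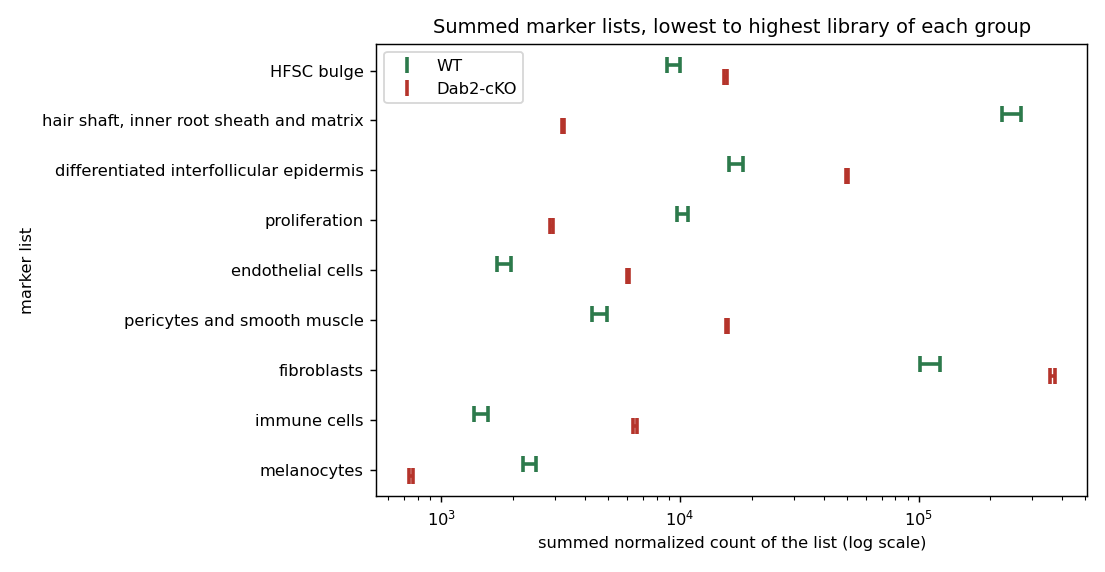
Summed normalized counts (x axis, log scale) of 9 marker lists (y axis), from the lowest to the highest of the 3 libraries labelled WT (green) and the 3 labelled Dab2-cKO (red). The ranges of the groups are apart in every list, with the inner root sheath, hair shaft and matrix list, proliferation and melanocytes lower and the other 6 lists higher in the libraries labelled Dab2-cKO.

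Between the libraries labelled Dab2-cKO and WT, 8 of the 10 Notch genes passed the test, 5 lower and 3 higher. Notch1, Notch2, Jag1, Jag2 and Hes1 were lower, whereas Notch3, Notch4 and Dll4 were higher, and neither Dll1 nor Hey1 was called. The test was edgeR's quasi-likelihood test with Benjamini-Hochberg adjustment over all genes tested and a threshold of 0.05. It called 28.2% of all genes tested, 16.8% higher and 11.5% lower. As calls are more frequent among abundant genes, the closer background is that of the 14798 genes with a mean count of at least 50, which include all 10 Notch genes. Of these 52.5% were called, 32.5% higher and 20.0% lower. The normalized counts of the groups did not overlap for the same 8 genes, while 38.3% of all genes tested did not overlap. That share was not taken over the genes with a mean count of at least 50, which would be the closer background. The median log2 fold change was -0.08 over the 10 Notch genes and -0.02 over all genes tested.

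Directions near 0 depend on the scaling between libraries. With library size only, the median of all genes moved to -0.45, and with upper-quartile scaling to -0.17. Called genes were higher in 59.4% of cases with TMM, in 43.5% with upper-quartile scaling and in 19.4% with library size only. Relative to the median of all genes, Notch3 lay 0.31 higher on the log2 scale and Hey1 0.29 higher under all 3 scalings. The value relative to that median was -0.86 for Notch1 and -1.25 for Jag1, also under all 3. A change of scaling shifts all genes by nearly the same amount. This sameness therefore follows from the arithmetic and does not show that a direction or call is stable.

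**Figure D2:**
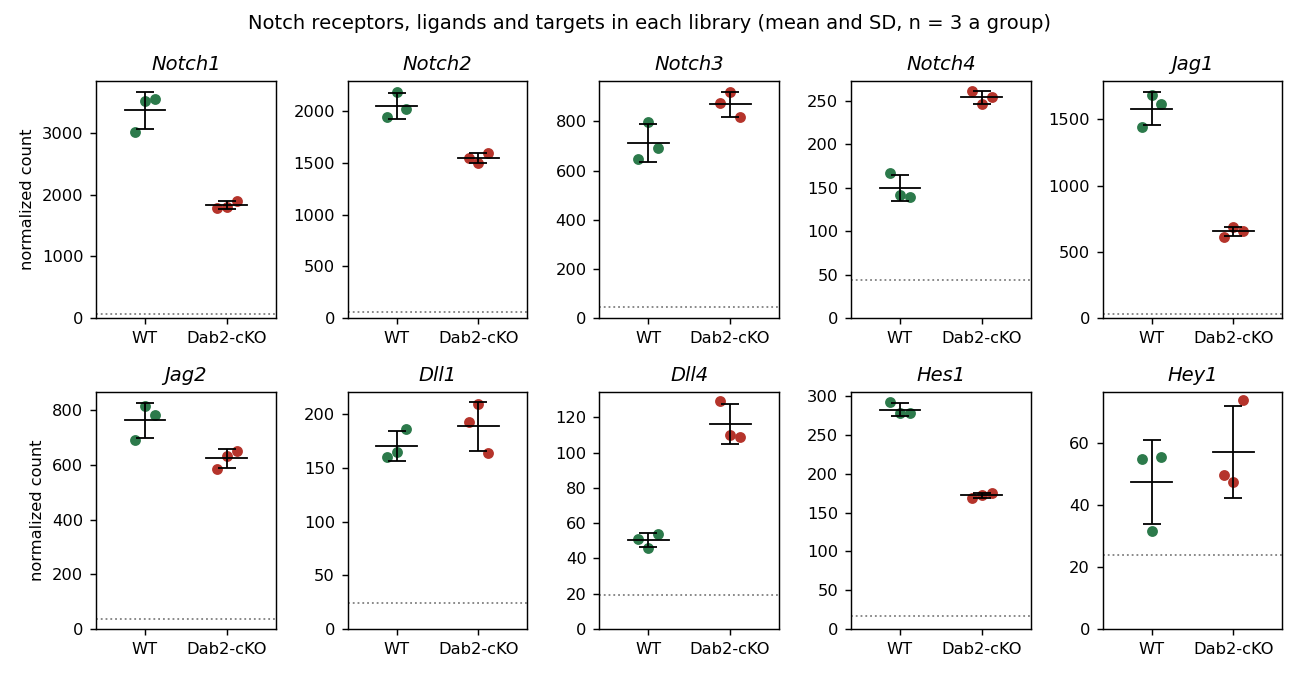
Normalized counts (y axes, each from 0) of the 10 genes in every library (x axes), with the mean and SD of the 3 libraries labelled WT (green) and the 3 labelled Dab2-cKO (red), and a dotted line at the count that background reads would give a gene of this length. Notch1 and Jag1 fell clear of the WT range, Dll4 and Notch4 rose clear of it, and Dll1 and Hey1 overlap.

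Among the receptors, Notch1 (ENSMUSG00000026923, chromosome 2, 26347915 to 26406675, minus strand), the main receptor of epidermal differentiation, was the most abundant in the libraries with the label WT and fell the most. It stood at 3018, 3510 and 3551 normalized counts where the label was WT and at 1784, 1792 and 1901 where it was Dab2-cKO. The highest Dab2-cKO library was far below the lowest WT library. The means were 3360 ± 296 and 1825 ± 65.2 (SD, n = 3), a level 1.84 times lower. The log2 fold change was -0.88 (SE 0.07, 95% interval -1.02 to -0.74), with an adjusted p of 2.59e-17 by edgeR. A lncRNA gene on the opposite strand shares 14% of the exon bases of Notch1, and as the strand setting of the counting is not given, its reads cannot be told apart there. That gene had only 13.2 and 17.4 normalized counts on average in the libraries with the label WT and Dab2-cKO. Markers of differentiated interfollicular epidermis mostly went the other way from Notch1, with 6 of 8 higher, 2 lower and a median log2 fold change of 1.56. How they relate to Notch1 was not tested.

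Notch2 (ENSMUSG00000027878, chromosome 3, 97920800 to 98057677, plus strand), a receptor with broad expression in epithelia, had normalized counts of 1941, 2182 and 2020 in the WT-labelled libraries and 1548, 1495 and 1592 in the Dab2-cKO-labelled ones. Its fall was smaller than that of Notch1 but again without overlap. From 2048 ± 123 to 1545 ± 48.5 (SD, n = 3), it changed by a log2 fold of -0.41 (SE 0.07, 95% interval -0.55 to -0.27), with an adjusted p of 1.71e-06 by edgeR. On the same strand, an unconfirmed gene model covers 4.80% of its exon bases.

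Notch3 (ENSMUSG00000038146, chromosome 17, 32339794 to 32385893, minus strand), the receptor of vessel wall cells that is also present in keratinocytes, went the other way. Its libraries had 646, 798 and 693 normalized counts with the label WT and 874, 917 and 816 with the label Dab2-cKO. The groups were apart by a small gap, between 798 and 816. The log2 fold change was 0.28 (SE 0.08, 95% interval 0.13 to 0.44) with an adjusted p of 0.00312 by edgeR, and it was -0.14 with library size only. The call was lost with upper-quartile scaling and with offsets for GC content. Beside this rise, the pericyte and smooth muscle markers had a median log2 fold change of 1.35, and most fibroblast and immune cell markers rose as well. The part of these cells in the result was not tested. A lncRNA gene on the opposite strand shares 8.92% of the exon bases of Notch3 and had 57.2 and 58.0 normalized counts on average.

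Notch4 (ENSMUSG00000015468, chromosome 17, 34783220 to 34807477, plus strand), a receptor known mainly from endothelium, was the least abundant receptor and rose the most. Its normalized counts were 167, 142 and 140 in libraries with the label WT and 262, 247 and 254 under the label Dab2-cKO. All 3 Dab2-cKO libraries lay close together and above every WT library. Its level was 1.70 times higher, with a log2 fold change of 0.77 (SE 0.12, 95% interval 0.52 to 1.02) and an adjusted p of 3.60e-07 by edgeR. The endothelial markers had a median log2 fold change of 1.71 and ranged from 1.35 to 1.96. The fibroblast and immune cell lists had similar medians of 1.59 and 1.64. The part of these cells in the result was not tested.

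Levels of different genes can be compared only per length, here as normalized counts per kb of exon. The length counted every exon base annotated for a gene over all its transcripts, 14232 for Notch1 and 11264 for Notch2. Orders, shares and levels per kb depend on this choice. In the libraries labelled WT the receptors were in the order Notch1, Notch2, Notch3 and Notch4, with levels of 236 ± 20.8, 182 ± 10.9, 79.1 ± 8.65 and 16.9 ± 1.70 per kb (SD, n = 3), and no neighbours overlapped. In those labelled Dab2-cKO, Notch2 at 133 to 141 per kb and Notch1 at 125 to 134 overlapped and cannot be ranked per kb. Before division by length, Notch1 had more normalized counts there, 1784 to 1901 against 1495 to 1592 for Notch2. Notch3 at 90.5 to 102 per kb and Notch4 at 27.9 to 29.6 remained below. The summed receptor level was 514 ± 35.6 per kb in the first group and 391 ± 3.05 in the second. Notch1 made up 45.9% ± 1.69 of that sum in the libraries with the label WT and 32.8% ± 0.920 in those with the label Dab2-cKO (SD, n = 3). The share of Notch3 was 15.4% and 24.7%, and that of Notch4 3.31% and 7.36%, respectively. Notch2 kept to 35.4% and 35.1%. Ratios of genes within a library do not depend on the scaling between libraries, and 8 such pairs were compared. The log2 ratio of Notch1 over Notch2 differed by -0.47 between the groups (Dab2-cKO minus WT), that of Notch3 over Notch2 by 0.70 and that of Notch4 over Notch2 by 1.17. None of these ratios overlapped between the groups, and each had an exact 2-sided permutation p of 0.1, the smallest that 3 against 3 allows, and 0.1 when adjusted over the 8 pairs.

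**Figure D3:**
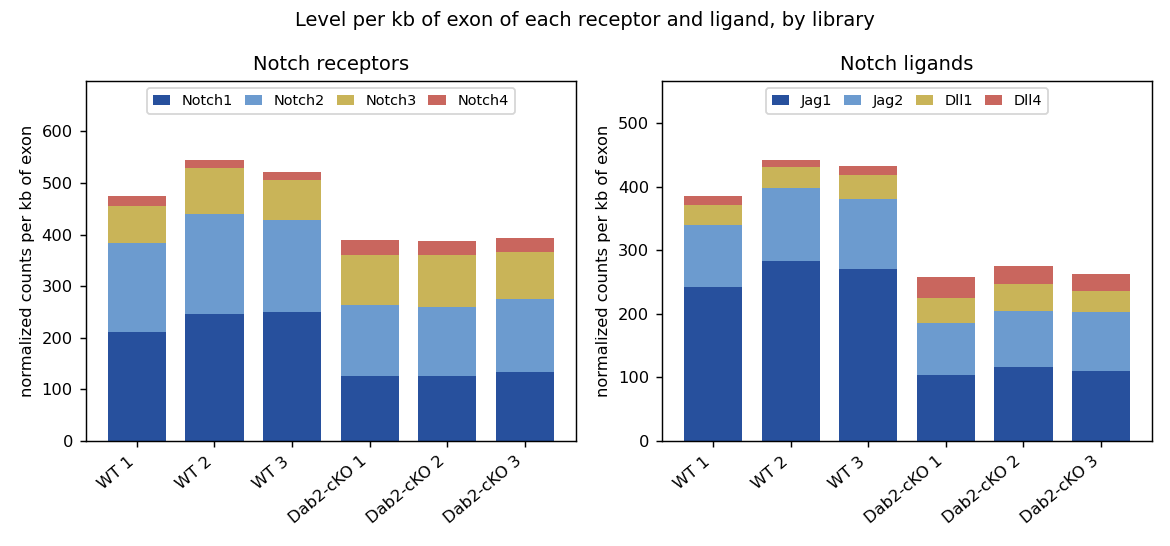
Normalized counts per kb of exon (y axes) of the 4 receptors (left) and the 4 ligands (right), stacked for each of the 6 libraries (x axes). The stacks of the libraries labelled Dab2-cKO are shorter, at 388 to 394 for receptors and 257 to 275 for ligands, and hold a smaller part of Notch1 and Jag1.

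Among the ligands, Jag1 (ENSMUSG00000027276, chromosome 2, 136923373 to 136958693, minus strand), a Jagged ligand of the hair follicle and basal epidermis, had the largest fall of the 10 genes. It had normalized counts of 1441, 1683 and 1614 where the label was WT and of 615, 689 and 657 where it was Dab2-cKO. Every Dab2-cKO library had less than the lowest WT library by a wide gap. The mean fell from 1579 ± 125 to 654 ± 37.2 (SD, n = 3), a level 2.42 times lower. The log2 fold change was -1.27 (SE 0.08, 95% interval -1.43 to -1.12) with an adjusted p of 5.69e-24 by edgeR. No other gene overlaps the exons of Jag1. The inner root sheath, hair shaft and matrix markers, which had a median log2 fold change of -6.39, and the proliferation markers, 8 of 8 of which were lower, moved in the same direction, and their part in the result was not tested.

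Jag2 (ENSMUSG00000002799, chromosome 12, 112871421 to 112893437, minus strand), the other Jagged ligand, had a smaller fall. Its libraries had 693, 817 and 784 normalized counts with the label WT and 587, 634 and 653 with the label Dab2-cKO. The gap between the groups, from 653 to 693, was small next to the spread within them. The log2 fold change was -0.29 (SE 0.08, 95% interval -0.45 to -0.13) with an adjusted p of 0.00234 by edgeR.

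Dll1 (ENSMUSG00000014773, chromosome 17, 15587276 to 15597134, minus strand), a Delta-like ligand known from clusters of epidermal stem cells, was not called. Its normalized counts of 160, 165 and 186 in the WT-labelled libraries and 193, 209 and 164 in the Dab2-cKO-labelled ones overlapped. The log2 fold change was 0.14 (SE 0.13, 95% interval -0.12 to 0.40) with an adjusted p of 0.501 by edgeR, and it was -0.28 with library size only. The coding gene Fam120b on the opposite strand shares 27.6% of the exon bases of Dll1. It had 381 and 420 normalized counts on average, more than Dll1, so the Dll1 count is uncertain by an unknown number of shared reads.

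Dll4 (ENSMUSG00000027314, chromosome 2, 119156170 to 119166443, plus strand), the Delta-like ligand of endothelial cells, had the largest rise of the 10 genes. It stood at 51.2, 46.0 and 53.8 normalized counts in libraries with the label WT and at 129, 110 and 109 under the label Dab2-cKO. The lowest Dab2-cKO library was above the highest WT library by about as much as that WT library itself contained. The level was 2.31 times higher, with a log2 fold change of 1.21 (SE 0.19, 95% interval 0.82 to 1.59) and an adjusted p of 2.71e-07 by edgeR. It rose beside the endothelial markers, among which Pecam1 had a log2 fold change of 1.88 and Cdh5 of 1.84. Most fibroblast and immune cell markers rose as well. The part of these cells in the result was not tested. A lncRNA gene on the opposite strand shares 15.6% of the exon bases of Dll4, with 23.9 and 22.2 normalized counts on average in the libraries with the label WT and Dab2-cKO.

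Per kb of exon, the ligands had the order Jag1, Jag2, Dll1 and Dll4 in both groups, and no neighbours overlapped. The levels were 265, 108, 34.4 and 12.8 normalized counts per kb in the libraries with the label WT and 110, 88.1, 38.1 and 29.4 in those with the label Dab2-cKO. The distances between them shrank. Jag1 took 63.1% ± 0.637 of the summed ligand level in the libraries with the label WT and 41.3% ± 1.08 in those with the label Dab2-cKO (SD, n = 3). The share of Jag2 was 25.7% and 33.2%, that of Dll1 8.20% and 14.3%, and that of Dll4 3.05% and 11.1%, respectively. Within a library, the log2 ratio of Jag2 over Jag1 was -1.05 ± 0.01 with the label WT and -0.06 ± 0.06 with the label Dab2-cKO (SD, n = 3). The ratio of Dll1 over Jag1 differed by 1.41 and that of Dll4 over Jag1 by 2.47, the widest of the 8 pairs. Jag1 also fell more than its receptor Notch1, as the log2 ratio of Jag1 over Notch1 was -1.09 ± 0.04 and -1.48 ± 0.09 (SD, n = 3). For each of these 4 ratios the groups did not overlap and the exact permutation p was 0.1.

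**Figure D4:**
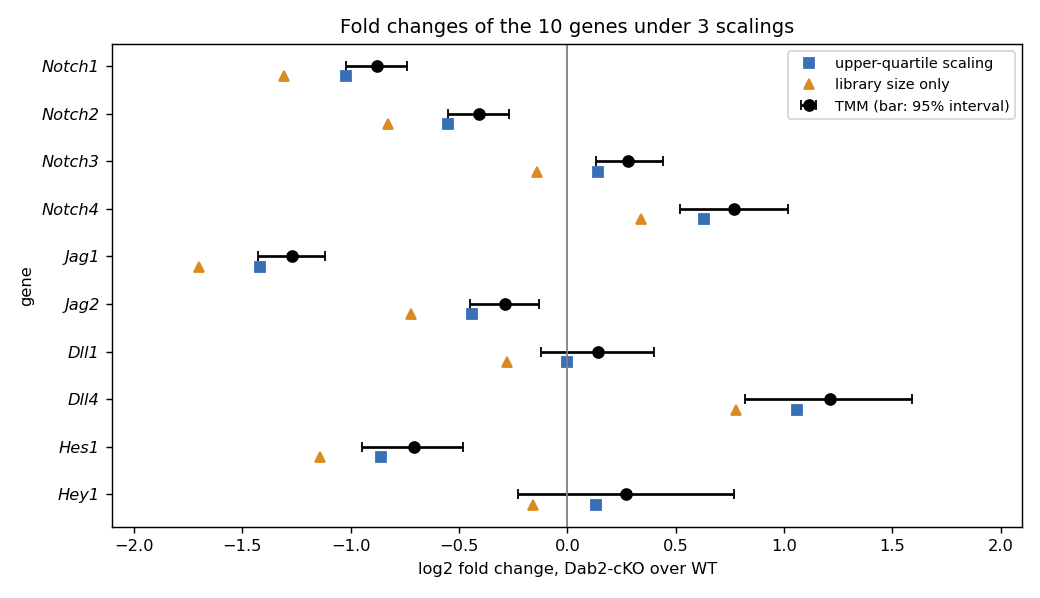
Log2 fold changes of the libraries labelled Dab2-cKO over those labelled WT (x axis) for the 10 genes (y axis), with the TMM estimate and its 95% interval (black circles and bars), upper-quartile scaling (blue squares) and library size only (orange triangles). Jag1, Notch1, Hes1, Notch2 and Jag2 are below 0 and Dll4 and Notch4 above 0 under all 3 scalings, whereas Notch3, Dll1 and Hey1 are below 0 with library size only, as is Dll1 by 0.0003 (a value of -0.0003) with upper-quartile scaling.

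Of the target genes, Hes1 (ENSMUSG00000022528, chromosome 16, 29882134 to 29886643, plus strand), the repressor whose window held 2 TGGGAA matches, was lower in the libraries labelled Dab2-cKO. It had 292, 278 and 278 normalized counts with the label WT and 169, 173 and 175 with the label Dab2-cKO. The replicates lay close together, and the groups were far apart. The mean fell from 282 ± 7.99 to 172 ± 3.36 (SD, n = 3), a level 1.64 times lower, with a log2 fold change of -0.71 (SE 0.12, 95% interval -0.95 to -0.48) and an adjusted p of 5.81e-07 by edgeR. No other gene overlaps the exons of Hes1. As with Jag1, the falls of Hes1, Notch1 and Notch2 had the direction of the inner root sheath, hair shaft and matrix markers and of the proliferation markers. The part of those cells in these results was not tested.

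Hey1 (ENSMUSG00000040289, chromosome 3, 8726956 to 8732385, minus strand), a related repressor, was the least abundant of the 10 genes per kb and was not called. Its normalized counts were 54.6, 31.6 and 55.5 in the libraries with the label WT and 49.6, 47.2 and 73.9 in those with the label Dab2-cKO. These values overlap. The log2 fold change was 0.27 (SE 0.25, 95% interval -0.23 to 0.77) with an adjusted p of 0.5 by edgeR, and it was -0.16 with library size only. The interval leaves room for changes of either sign. As a measure of background reads, 1521 chemosensory receptor genes had a median of 4.94 and a 95th percentile of 11.8 normalized counts per kb. Hey1 stood at 9.85 ± 2.82 and 11.9 ± 3.09 per kb (SD, n = 3), while the means of the other 9 genes were above that percentile in both groups. The lowest WT-labelled library of Dll4 was at 11.7 per kb, at the edge of this background. Hes1 stood at 83.7 ± 2.37 and 51.0 ± 0.995 per kb, and the log2 ratio of Hey1 over Hes1 differed by 0.99 between the groups without overlap (exact permutation p of 0.1).

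The rest of the pathway was read from a list of 49 other genes, of which 48 were tested. There 14 were higher, 8 lower and 26 not called in the libraries labelled Dab2-cKO, with a median log2 fold change of 0.14 against -0.02 over all genes tested. These 22 calls stand beside the 28.2% of all genes tested and the 52.5% of genes with a mean count of at least 50 that were called, and nothing is read from the count for the list or for the smaller counts by role. The split depends on the scaling, and among these 48 it was 10 higher and 14 lower with upper-quartile scaling and 4 higher and 23 lower with library size only. Of the other ligands 1 of 4 was called. This was Dlk2, a Delta-like homologue of low level, at 25.4 ± 6.34 and 43.5 ± 1.18 normalized counts (SD, n = 3), and its call was lost in 12 of 15 alternative analyses. Of the glycosyltransferases that tune which ligand a receptor answers to, Mfng rose from 47.6 ± 8.32 to 110 ± 11.0 normalized counts (log2 fold change 1.22, adjusted p of 6.45e-07 by edgeR). The most abundant of them, Lfng, had a log2 fold change of -0.33 (95% interval -0.60 to -0.06) and was not called, although 8 of 16 alternative analyses called it lower.

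Of the ubiquitin ligases that drive ligand endocytosis, 3 of 5 were higher. Neurl1a had a log2 fold change of 0.78 and Neurl3 of 0.74. In the WT-labelled and Dab2-cKO-labelled libraries, Neurl1a was at 6.56 and 11.4 normalized counts per kb. Both values are below the chemosensory 95th percentile of 11.8, so the size of its rise is uncertain. Neurl3 was at 16.7 and 28.1 per kb. Without Dab2-cKO replicate 1 neither was called, with log2 fold changes of 0.55 and 0.60 and adjusted p of 0.0909 and 0.0583 by edgeR. Mib1, the most abundant of this group at 1857 ± 91.3 and 1663 ± 47.1 normalized counts, was not called (log2 fold change -0.16), but was called lower in 7 of 16 alternative analyses. Of the genes for receptor cleavage, 3 of 10 were higher. Aph1a, a γ-secretase subunit, had a log2 fold change of 0.48 with 1 library overlapping between the groups, and its call was lost in 5 of 16 alternative analyses. These included leaving out Dab2-cKO replicate 2 (0.37, adjusted p of 0.0625 by edgeR) or replicate 3 (0.36, adjusted p of 0.0929). The protease Adam17 had a log2 fold change of 0.40 with TMM but of -0.03 with library size only. Adam10, the main protease of ligand-induced cleavage and the most abundant of the group, was at 949 ± 27.8 and 866 ± 60.8 normalized counts and was not called (log2 fold change -0.13, 95% interval -0.28 to 0.02), but was called lower in 3 of 16 alternative analyses.

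In the nuclear complex, 4 of 8 genes were higher and 3 lower. Rbpj had 436, 428 and 447 normalized counts where the label was WT and 748, 677 and 691 where it was Dab2-cKO. It was therefore higher where Hes1 was lower, with a log2 fold change of 0.69 (SE 0.08) and an adjusted p of 9.96e-11 by edgeR. The coactivators of the Mastermind family moved apart, as Maml2 had a log2 fold change of 0.48 and Maml3 of -0.90. The corepressor Tle3, the most abundant of these genes per kb over all libraries together, fell from 1988 ± 151 to 1039 ± 51.6 normalized counts (SD, n = 3; log2 fold change -0.94).

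Of the genes for receptor trafficking and turnover, 2 of 8 were higher and 3 lower. Numb, an endocytic adaptor that restrains Notch and has a phosphotyrosine-binding domain like Dab2, fell from 668 ± 80.2 to 494 ± 48.6 normalized counts (SD, n = 3; log2 fold change -0.43, adjusted p of 3.56e-05 by edgeR). Genes on the opposite strand, the coding gene Papln among them, share 32.2% of the exon bases of Numb, so its count is uncertain as well. Its relative Numbl rose, from 142 ± 13.5 to 238 ± 20.4 (log2 fold change 0.73). The ubiquitin ligase Dtx4 had a log2 fold change of 0.98, and the kinase Aak1, which acts in endocytosis, of -0.41.

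Among the other targets and Hes/Hey relatives, 2 of 8 tested were called, both lower. Heyl stood at 296, 318 and 315 normalized counts in the libraries with the label WT and at 96.3, 99.0 and 88.3 in those with the label Dab2-cKO. The level was 3.28 times lower, with a log2 fold change of -1.71 (SE 0.13, 95% interval -1.97 to -1.45) and an adjusted p of 8.58e-19 by edgeR. The inner root sheath, hair shaft and matrix markers and the proliferation markers were lower as well, and their part in the fall of Heyl was not tested. Hes2, a Hes relative, fell from 67.4 ± 4.27 to 16.5 ± 7.70 normalized counts (SD, n = 3; log2 fold change -2.01). At 5.52 per kb in the Dab2-cKO-labelled libraries it was close to the chemosensory median of 4.94, so the size of its fold change is uncertain. Nrarp, a feedback target of Notch, was at 40.6 ± 10.6 and 42.4 ± 10.4 and was not called (log2 fold change 0.06, 95% interval -0.48 to 0.61), with -0.37 under library size only. Opposite-strand lncRNA genes share 86.5% of its exon bases, and their reads cannot be told apart from those of Nrarp. Hes5, with 0 to 7 counts in any library, did not pass the filter. The windows before Heyl, Hes2 (with 5 exon bases in it) and Nrarp held no match to TGGGAA. Those before Hes5 (not tested) and Hes7 (not called) held 1 each.

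**Figure D5:**
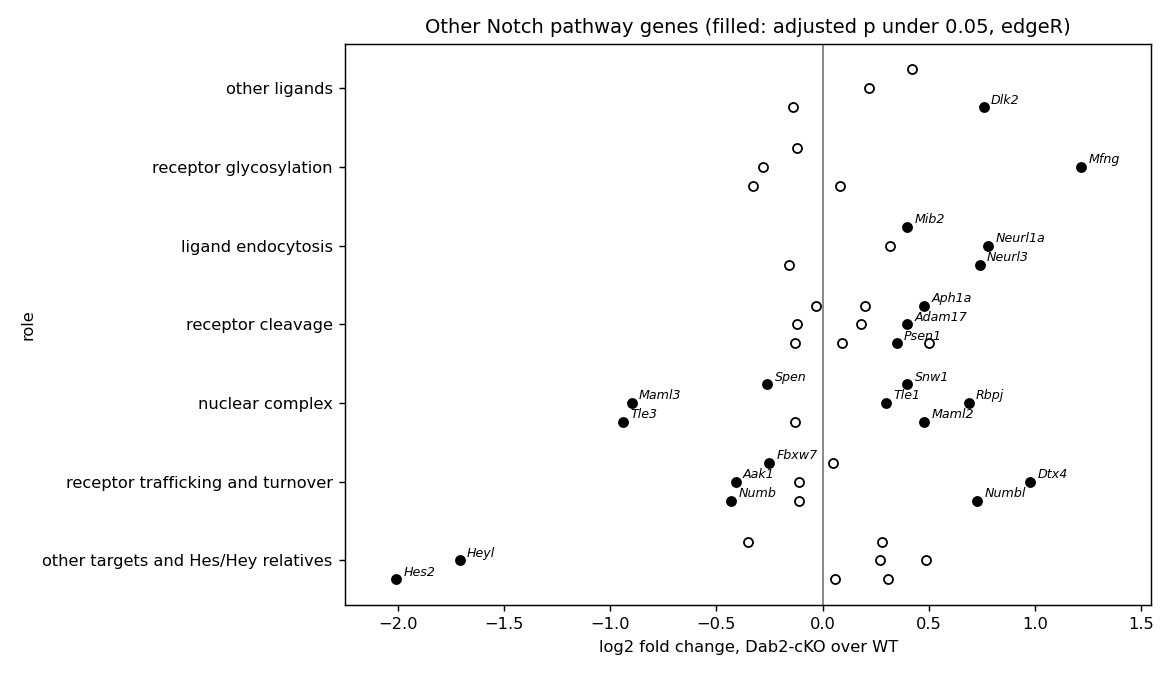
Log2 fold changes of the libraries labelled Dab2-cKO over those labelled WT (x axis) for the 48 tested genes of the rest of the pathway, by role (y axis, spread vertically within a role for legibility), with TMM scaling. Filled points passed edgeR's test and are named, 14 higher and 8 lower, and the 2 largest falls, Hes2 and Heyl, are among the other targets.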

How the data were processed

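The 6 libraries of sorted HFSCs, 3 per genotype, were made from 5 ng of total RNA with a stranded pico-input kit. Per the submitters' processing notes, the authors used fastp 0.23.4, HISAT2 2.2.1, SAMtools 1.6 and featureCounts 2.0.6 with GRCm39, and deposited raw counts per gene. How strand and multi-mapped reads were handled, and which annotation release was used, is not given in the sources used here. The authors' own comparison table, with fold changes, p-values and scaled counts from DESeq2, was not used, and no per-sample column of the counts was left out. Of the rows, 6770 have a gene ID without a name. They stayed in the fit.

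The counts were filtered by edgeR 4.0.16 (R 4.3.3) with its default expression filter, scaled by TMM and tested by robust quasi-likelihood F-tests with genotype as the only term, adjusted by Benjamini-Hochberg over 32149 genes. Ratios within a library used counts plus 0.5 and an exact 2-sided permutation test. The scripts were tested on simulated data. Exon lengths, overlaps and start sites came from the GENCODE annotation of GRCm39, matched by ID for 56323 of 56941 genes. The exon length of a gene was that of all its annotated exons merged. The 10 genes were named by their membership. Of the other pathway genes, the text names in each role the most abundant per kb and up to 2 called rises and 2 called falls, and Numb, Rbpj, Adam10, Hes5 and Nrarp whatever their values. From this list 1 gene is not reported here and was left out of its counts. Other genes named (Dab2, markers, the overlapping Fam120b and Papln, and Hes7) served as checks. The genes, lists and tests were chosen with earlier results of these data known.

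The alternatives were DESeq2 1.42.0, upper-quartile scaling, library size only, TMM without mitochondrial and the 100 most abundant genes, a replicate block, GC offsets, both together, no filter, a minimum mean count of 50, each library left out and a test against a 1.5-fold change. Counts of 7040032 to 11696457 per library set the counting error, which alone does not cover differences between animals. The replicates are labelled biological. The edgeR p-values rest on the spread between these samples, moderated over all genes tested and not taken from each gene alone.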

Additional observations from a re-analysis of the deposited data

How the results depend on the processing

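Of the 10 Notch genes 8 were called in the reported analysis and 8 in 11 of 16 alternatives, each library left out in turn included (8 to 8). With upper-quartile scaling, library size only, GC offsets and GC offsets with a replicate block 7 were called, the lost call being Notch3. Against a 1.5-fold change 3 were called (Notch1, Jag1 and Dll4), and 6 of the other pathway genes in place of 22. That count was 19 to 23 with a library left out and 27 with library size only. With library size only the log2 fold change turned to -0.14 for Notch3, -0.28 for Dll1, -0.16 for Hey1, -0.03 for Adam17 and -0.37 for Nrarp, and with upper-quartile scaling to -0.0003 for Dll1 and -0.08 for Nrarp. That of Nrarp was -0.13 without WT replicate 2 and -0.14 without Dab2-cKO replicate 3, and from -0.14 to 0.25 over all libraries left out. The 8 ratios kept their sign in all 72 alternative values. Most of these could not have turned, as groups that do not overlap keep the sign when a library is left out. A replicate block also leaves the difference as it is, so only the other pseudocounts could change a sign. The labels give the same-numbered libraries only a number in common. Their deviations correlated by 0.0731, -0.0143 and 0.0594 over 14798 genes, and those of the other pairs by -0.0998 to 0.0514. With 3 libraries a group, these values cannot tell whether same-numbered libraries share anything else. A replicate block left 8 of the Notch genes and 22 of the other pathway genes called. Low counts limit Hey1, Dlk2 and Nrarp among others, and a library's count of 0 allows a share of at most 4.26e-05% of its counts.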
